A study of Mus musculus with 60 samples.

Results

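The genes described here encode potassium channels and their accessory subunits in the embryonic mouse brain. All rows of the deposited expression table whose gene symbol starts with Kcn were taken, apart from Kcnq1ot1, a long non-coding RNA, which gave 94 genes of the 24378 features listed. Of these, 64 reached a mean of at least 1 RPKM (reads per kilobase of transcript per 1000000 mapped reads) in at least 1 of the 20 groups of libraries and are described below, and 30 stayed below that level in all groups. Of all features, 14692 reached it. The animals were TH-GFP mouse embryos, in which a tyrosine hydroxylase promoter drives green fluorescent protein in dopaminergic neurons, and every group carried this reporter. From embryos of 4 ages, at daily steps between E11.5 and E14.5, 5 regions were cut out under a fluorescence stereomicroscope: the ventral midbrain, where the dopaminergic neurons form, the dorsal midbrain, the alar plate, the ventral forebrain and the ventral hindbrain. Each of the 20 combinations of region and age was sequenced as 3 RNA libraries, 60 in all. The pieces were whole tissue and were not sorted by fluorescence, so every value averages over neurons, progenitors and other cells, and in such bulk samples fewer cells of a type and less RNA per cell cannot be told apart. Nothing in the labels ties a library to an embryo or a litter, so the p-values measure only the spread between these samples, which may be technical.

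Potassium channels let potassium leave or enter a cell and so set its resting potential, shorten its action potentials and pace its firing. Voltage-gated channels are built from Kv subunits (Kcna to Kcnd, with the silent modulators Kcnf, Kcng, Kcns and Kcnv, the Kcnq channels that carry the M-current, and the Kcnh channels of the EAG, ELK and ERG type). Inward rectifiers (Kcnj) and tandem-pore leak channels (Kcnk) hold the resting potential, and the Kcnn, Kcnm and Kcnt channels open with intracellular calcium or sodium. Accessory genes (Kcnab, Kcnip, Kcnmb, Kcne) encode subunits that change the gating or trafficking of the pore-forming proteins. In dopaminergic neurons of the adult midbrain, Kv4 channels with their KChIP partners set the pace of spontaneous firing, small-conductance calcium-activated channels keep it regular, and GIRK channels (Kcnj6 among them) carry the inhibition by dopamine.

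The libraries held between 979197 and 23581725 reads. The median was 3146243 at E11.5, 11135437 at E12.5, 10949658 at E13.5 and 2729432 at E14.5, so low values are least certain at the first and the last age. By their whole expression profile, 8 of the 15 libraries at E11.5 correlated best with another region than the one they were labelled as, as did 3 at E12.5, all of them alar plate, and none at E13.5 or E14.5. The dissection was checked against 10 marker genes of dopaminergic neurons. In the ventral midbrain they summed to 597 to 656 RPKM on day E12.5, to 485 to 641 a day later and to 387 to 558 at the last age, while the other regions stayed at or below 149, 88.1 and 88.0 RPKM. At E11.5 it ranged from 31.5 to 203 RPKM in the ventral midbrain against 17.8 to 136 elsewhere, so the groups overlapped, and Slc6a3, the dopamine transporter, was at 0 in all 3 ventral midbrain libraries.

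The 64 genes covered every channel family. By the sum of their RPKM, the voltage-gated Kv subunits (15 of 17 genes reached 1 RPKM) went from 18.9 in the ventral forebrain at E11.5 to 86.4 in the ventral midbrain at E14.5, and the accessory subunits (12 of 17) from 30.1 in the alar plate at E11.5 to 86.9 in the ventral hindbrain at E13.5. The tandem-pore channels (6 of 14) ran from 17.0 in the dorsal midbrain at E11.5 to 67.3 in the ventral midbrain at E12.5, a peak to which Kcnk9 alone gave 43.8 RPKM. The EAG group (6 of 8) spanned 13.6 to 34.2 RPKM and the inward rectifiers (10 of 15) 6.56 to 29.2. The calcium- and sodium-activated channels, counted together with the related Slo3 gene Kcnu1 (8 of 8), spanned 9.82 to 25.5. The Kcnq genes (3 of 5) spanned 5.52 to 23.2 and the silent subunits (4 of 10) 1.99 to 7.96. The highest group mean of a gene fell in the ventral midbrain for 21 of the 64, in the ventral hindbrain for 18, in the ventral forebrain for 13, in the dorsal midbrain for 8 and in the alar plate for 4. By age, 34 of the 64 were highest at E14.5, against 7 at E11.5, and the 2 groups with most peaks were the ventral midbrain (15 genes) and the ventral hindbrain (10 genes) at E14.5. Where the highest means of all features fell was not computed, so whether these counts are particular to potassium channel genes is not known.

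**Figure D1:**
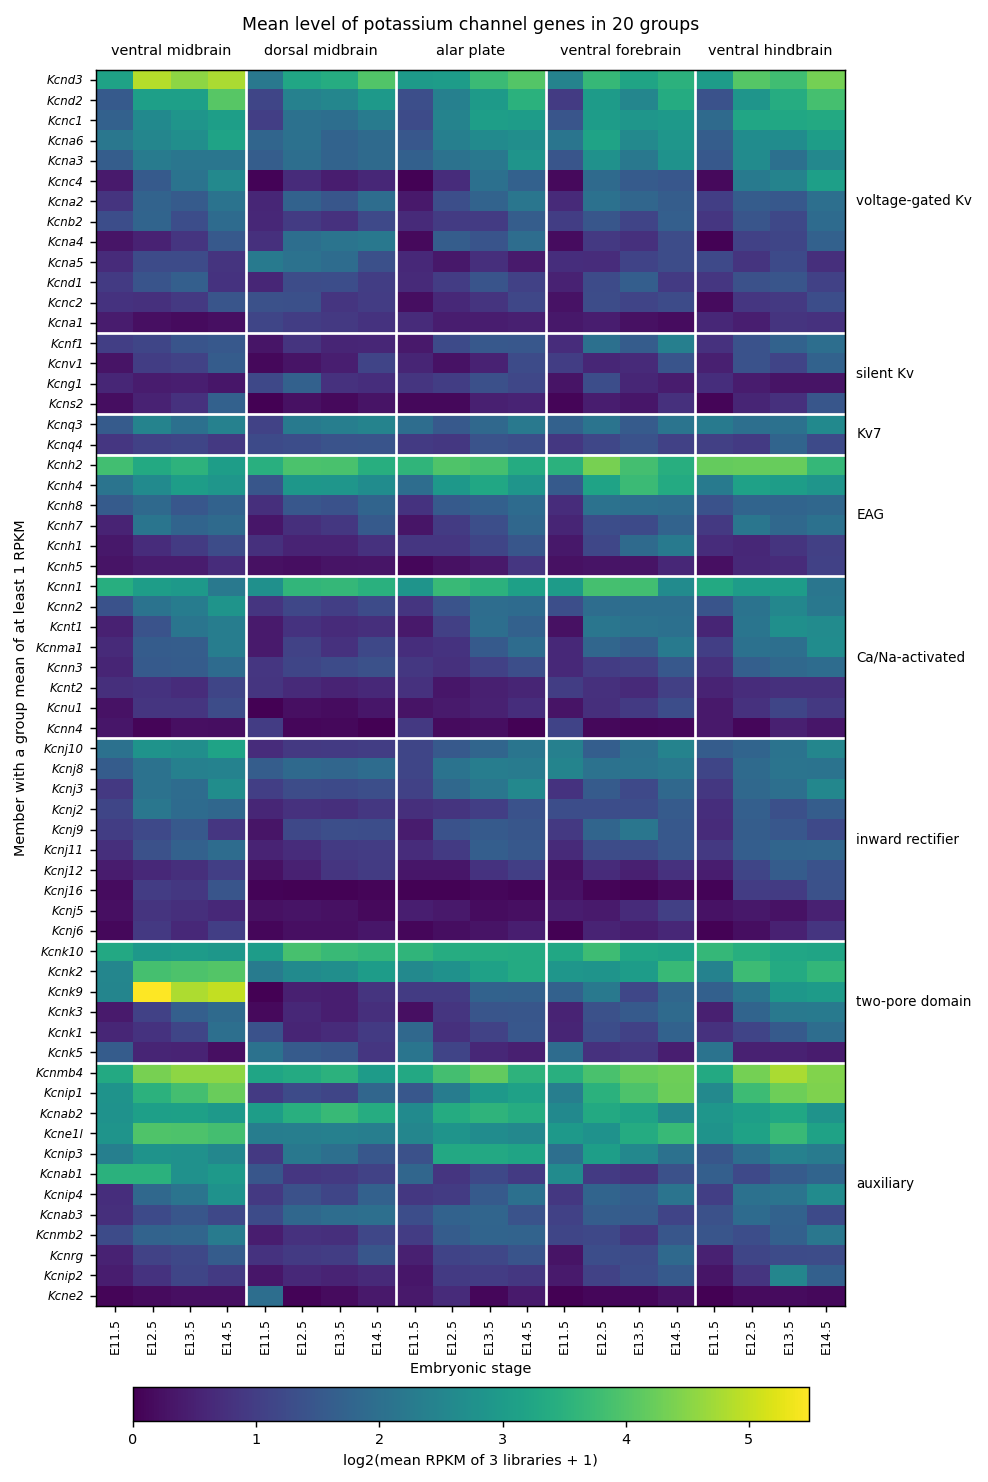
Mean level of the potassium channel genes at or above 1 RPKM that are reported here (rows, by family) in the 20 groups of region and age (columns), on a log2(RPKM + 1) colour scale, 3 libraries per group. Kcnk9 stands out as a block of high values in the ventral midbrain from E12.5, while Kcnh2 and Kcnk10 change little across the columns.

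Among the pore-forming voltage-gated genes, Kcnd3 and Kcnd2, which encode Kv4 subunits of the fast transient A-type current, had the highest means over the 20 groups. Kcnd3 averaged 12.7 RPKM and ran from 3.61 ± 0.32 (SD, n = 3, as throughout) in the dorsal midbrain at E11.5 to 28.1 ± 0.49 in the ventral midbrain at E12.5. Kcnd2 averaged 6.29 RPKM and differed 16.8-fold between its lowest group, the ventral forebrain at E11.5 (0.927 ± 0.81), and its highest, the ventral midbrain at E14.5 (15.6 ± 1.1). Kcnd3 differed 7.78-fold. Kcna3, a Kv1 subunit, differed only 3.61-fold, with its highest level in the alar plate at E14.5 (6.19 ± 0.62 RPKM). Kcnc4, a Kv3 subunit of fast-firing neurons, reached 7.59 ± 1.7 RPKM in the ventral hindbrain at E14.5, and its lowest group mean, 0.0258 RPKM in the alar plate at E11.5, rested on too few reads for a firm ratio. The silent subunits stayed low, with Kcnf1 highest in the ventral forebrain at E14.5 (4.18 ± 0.98 RPKM) and Kcnv1 highest in the ventral hindbrain at E14.5 (2.33 ± 1.0 RPKM). Kcnq3, an M-current gene, averaged 3.21 RPKM and peaked in the ventral hindbrain at E14.5 (5.03 ± 0.24). In the EAG group, Kcnh2, the ERG channel gene, averaged 12.7 RPKM and differed only 2.67-fold, from 7.30 ± 1.9 in the ventral midbrain at E14.5 to 19.5 ± 5.6 in the ventral forebrain at E12.5. Kcnh4, an ELK channel gene, peaked in the ventral forebrain at E13.5 with 12.3 ± 2.3 RPKM.

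Among the leak channels, Kcnk9 (TASK-3, an acid-sensitive background channel) had the widest span of all. It had no reads in the 3 dorsal midbrain libraries at E11.5, and its mean of 43.8 ± 1.2 RPKM in the ventral midbrain at E12.5 was at least 54.0-fold higher than 3 reads per library would give there. The stretch-sensitive channel genes behaved differently. Kcnk10 (TREK-2) averaged 9.42 RPKM and differed only 2.12-fold between groups, the least of the genes that reached 5 RPKM, and Kcnk2 (TREK-1) averaged 8.34 RPKM and peaked in the ventral midbrain at E14.5 (15.2 ± 2.0). Inward rectifiers were lower. Kcnj10, best known from glia, reached 8.03 ± 0.60 RPKM in the ventral midbrain at E14.5 from 0.618 ± 0.12 in the dorsal midbrain at E11.5, and Kcnj8, a pore subunit of ATP-sensitive channels known from pericytes, was highest in the ventral forebrain at E11.5 (4.58 ± 2.5 RPKM). Among the calcium-activated channels, Kcnn1 averaged 8.45 RPKM with its peak in the ventral forebrain at E12.5 (13.52 ± 2.4), and Kcnn2 averaged 2.56 RPKM with its peak in the ventral midbrain at E14.5 (6.16 ± 0.75).

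The accessory genes included the highest mean over all groups. Kcnmb4, the neuronal beta subunit of large-conductance calcium-activated channels, averaged 14.7 RPKM and ranged from 7.02 ± 1.2 in the dorsal midbrain at E14.5 to 26.8 ± 2.5 in the ventral hindbrain at E13.5. Its pore-forming partner Kcnma1 averaged 1.98 RPKM. Kcnip1, a KChIP subunit of Kv4 channels, differed 23.0-fold, from 0.896 ± 0.60 RPKM in the dorsal midbrain at E11.5 to 20.6 ± 3.4 in the ventral hindbrain at E14.5. A second KChIP gene, Kcnip3, was instead highest in the alar plate (8.91 ± 0.53 RPKM at E13.5 and 8.85 ± 3.3 at E12.5). Kcnab2, a beta subunit of Kv1 channels, differed only 2.43-fold and peaked in the dorsal midbrain at E13.5 (11.99 ± 0.76 RPKM). Kcnab1, its relative that speeds Kv1 inactivation, had its highest means in the ventral midbrain, 10.3 ± 8.3 RPKM at E11.5 and 10.3 ± 1.2 at E12.5. Kcne1l, a single-span accessory subunit also named Kcne5, differed 3.69-fold and was highest in the ventral midbrain at E12.5 (14.8 ± 0.20 RPKM). The sodium-activated channel gene Kcnt1 differed 28.9-fold, from 0.194 ± 0.13 RPKM in the ventral forebrain at E11.5 to 5.61 ± 0.92 in the ventral hindbrain at E13.5. Exons of 19 of the 64 genes overlap an exon of an antisense transcript in the GENCODE annotation, among them Kcnd3, Kcnab1, Kcnk2, Kcnmb4, Kcnn1, Kcnn2 and Kcnip4. Whether the counting used strand is not given in the sources used here, so reads of these genes and of their antisense partners cannot be told apart.

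The levels of most of these genes went with those of neuronal genes. Over the 20 group means, on the log2(RPKM + 1) scale, 44 of the 64 (68.8%) had a Pearson correlation above 0.5 with the mean level of 12 pan-neuronal genes. Of all 14692 features at or above 1 RPKM, 26.9% did. The median correlation was 0.69 for the 64 and -0.12 for all features. Kcnj11, a pore subunit of ATP-sensitive channels (0.90), Kcnn2 and the Kv3 gene Kcnc1 (0.89 each) were among those with the highest correlations. Kcnk5 (TASK-2) ran the other way, with -0.84 against the neuronal genes and 0.94 against 12 neural progenitor genes, and the only other gene above 0.5 with the progenitor genes was Kcnn4 (0.51). These correlations are descriptions over groups that share libraries, age and sequencing depth.

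At each age, log2(RPKM + 1) in the ventral midbrain was set against its mean over the other 4 regions. A gene was called when its adjusted p was below 0.05 and its difference at least 1 on the log2 scale (a doubling, on a scale that understates the change of low genes). From E12.5 on, Kcnk9 and Kcnab1 had the largest differences of the potassium channel genes. At all 3 of these ages both stayed above every library of the other regions, together with Kcnd3 and Kcnj10. Kcnk9 lies on chromosome 15 (72501089 to 72546340, minus strand, mm10, as for all positions here) and Kcnab1 on chromosome 3 (65109384 to 65378223, plus strand). Kcnd3 lies on chromosome 3 (105452330 to 105674002, plus strand) and Kcnj10 on chromosome 1 (172341210 to 172374085, plus strand).

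Because Kcnab1, Kcnd3 and Kcnj10 stood above every library of the other regions at these ages, the 250 bases before the RefSeq start of each are shown, 5′ to 3′, with CG dinucleotides in capitals (RefSeq, GRCm38.p6, at chr3:65108764-65109013, chr3:105451640-105451889 and chr1:172340960-172341209, all on the plus strand).
Kcnab1: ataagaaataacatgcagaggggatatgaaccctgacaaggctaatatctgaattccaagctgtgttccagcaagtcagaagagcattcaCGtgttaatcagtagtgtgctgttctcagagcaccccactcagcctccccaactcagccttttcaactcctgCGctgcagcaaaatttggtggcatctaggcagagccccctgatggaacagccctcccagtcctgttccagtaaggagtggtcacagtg
Kcnd3: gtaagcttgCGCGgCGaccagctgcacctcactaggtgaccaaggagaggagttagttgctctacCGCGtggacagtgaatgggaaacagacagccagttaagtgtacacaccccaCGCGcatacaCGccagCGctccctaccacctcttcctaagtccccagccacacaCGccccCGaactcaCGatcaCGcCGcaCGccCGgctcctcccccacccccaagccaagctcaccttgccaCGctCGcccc
Kcnj10: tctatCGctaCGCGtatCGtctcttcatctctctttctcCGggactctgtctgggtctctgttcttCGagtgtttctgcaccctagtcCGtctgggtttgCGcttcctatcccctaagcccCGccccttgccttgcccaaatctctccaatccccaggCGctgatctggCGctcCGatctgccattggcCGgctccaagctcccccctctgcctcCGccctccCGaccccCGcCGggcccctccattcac
The windows of Kcnd3 and Kcnj10 were rich in CG dinucleotides, with 18 and 17, while that of Kcnab1 held 2. The median over all 32851 windows of this length was 6. In GC content, Kcnab1 stood at 50%, Kcnd3 at 62.8% and Kcnj10 at 62%, against a median of 52.4% for all windows. Kcnab1 has 3 windows in the table, and the one nearest the GENCODE start is shown. The RefSeq starts of Kcnab1 (65109014) and Kcnd3 (105451890) lie before the GENCODE starts given above, so these windows do not adjoin them. That of Kcnj10 is the same in both. Windows were matched for 69 of the 94 genes, Kcnk9 not among them. A forkhead motif (TGTTTAC, in 3.17% of all windows), a homeodomain motif (TAATTA, 4.84%), a Pitx-type motif (GGATTA, 6.25%) and a nuclear receptor motif (AAAGGTCA, 1.34%) were searched on both strands. None of these letters occurred in the windows of Kcnab1, Kcnd3 or Kcnj10, nor in those of Kcne1l and Kcnj2, and they occurred in 0, 0, 2 and 1 of the 68 windows of the genes at or above 1 RPKM.

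At E12.5, 6 potassium channel genes were higher in the ventral midbrain. Kcnk9 stood at 43.1, 45.1 and 43.1 RPKM in the 3 ventral midbrain libraries and between 0 and 6.35 RPKM (median 1.39) in the 12 others. It was higher by 4.13 ± 0.36 (SE) on the log2 scale (adjusted p = 6.3e-06). Kcnab1 stood at 11.6, 9.79 and 9.37 RPKM against 0.597 to 1.53 (median 0.918) elsewhere, a difference of 2.53 ± 0.11 (adjusted p = 1.8e-08). The ventral midbrain libraries of both genes lay far above all others and close to each other. Kcnd3 had 28.5, 28.2 and 27.6 RPKM against 2.88 to 16.9 (median 9.63), a difference of 1.42 ± 0.28 (adjusted p = 0.0041). Kcnj10 had 6.64, 6.11 and 5.43 RPKM against 0.525 to 3.89 (median 1.66), a difference of 1.43 ± 0.31 (adjusted p = 0.0084). The groups did not overlap for either gene, though other regions reached more than 3 RPKM of Kcnj10. Kcne1l, on the X chromosome (142304752 to 142306294, minus strand), had 14.9, 14.53 and 14.8 RPKM against 3.43 to 8.94 (median 5.65), a difference of 1.20 ± 0.11 (adjusted p = 7.8e-06). Kcnj2, a classical strong inward rectifier on chromosome 11 (111066164 to 111076821, plus strand), had 3.64, 3.33 and 3.52 RPKM against 0.522 to 2.27 (median 0.984), a difference of 1.04 ± 0.15 (adjusted p = 0.00057). Its call was lost without ventral forebrain replicate 1 (0.98) and without the 3 alar plate libraries (0.94), and that of Kcnj10 without ventral midbrain replicate 1 (adjusted p = 0.055).

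These 6 made up 10.9% of the 55 potassium channel genes tested at E12.5, where 2.73% of all 13733 features were called higher. No potassium channel gene was called lower by limma or limma-voom, against 0.801% of all features by limma. In either direction, 25 of the 55 had an unadjusted p below 0.05, against 3217 of the 13733 features. At an adjusted p below 0.05 and any size of difference, 12 of the 55 were higher (21.8%, against 7.59% of all features) and 3 were lower (5.45%, against 3.21%). The other 6 higher genes were Kcnk2 (0.89), Kcnh7, an ERG-type channel gene (0.88), Kcnip1 (0.87), Kcnmb2, a beta subunit of large-conductance calcium-activated channels (0.54), Kcnmb4 (0.51) and Kcnv1 (0.37). The 3 lower genes were Kcnh2, Kcnab3 and Kcnn1, and their number was 7 without alar plate replicate 3 and 5 without dorsal midbrain replicate 3. Kcnh2 had 9.07, 9.29 and 8.77 RPKM in the ventral midbrain and 11.6 to 25.9 RPKM elsewhere, so all ventral midbrain libraries lay below all others, with a difference of -0.78 ± 0.14 (adjusted p = 0.0028). Kcnab3, a Kv1 beta subunit gene, differed by -0.54 and Kcnn1 by -0.50. The median difference was 0.15 for the 55 genes and -0.03 for all features.

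**Figure D2:**
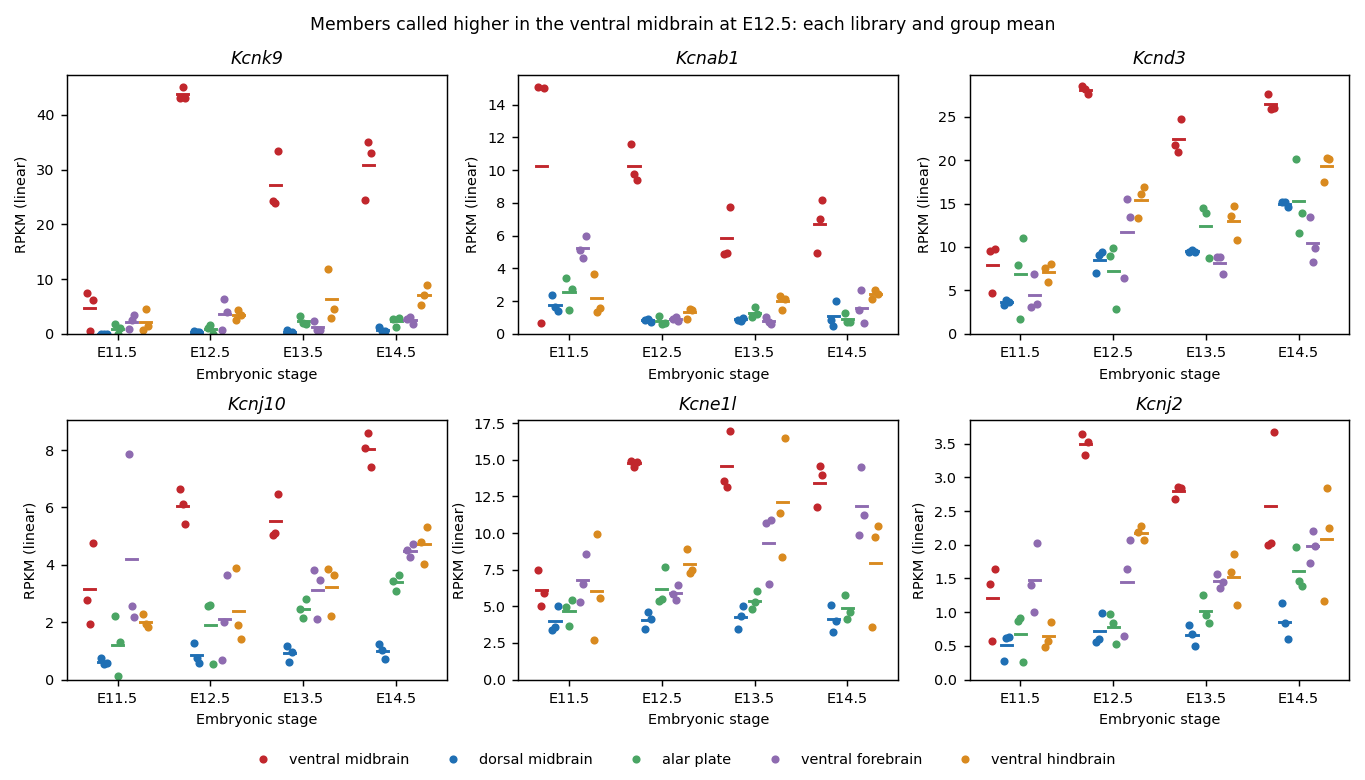
Level in RPKM (linear axis) of the 6 potassium channel genes called higher in the ventral midbrain at E12.5, by age and region, with a point for each of the 60 libraries and a bar for each group mean. In the Kcnk9 panel the ventral midbrain libraries stand at 43.1 to 45.1 RPKM at E12.5, above all other regions, and at E11.5 they spread from 0.458 to 7.41 RPKM.

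At E13.5 the difference in Kcnk9 and Kcnab1 was again the widest. Kcnk9 had 24.3, 24.0 and 33.4 RPKM against 0.0648 to 11.7 (median 1.88) elsewhere, a difference of 3.32 ± 0.30 (adjusted p = 3.6e-06), and Kcnab1 had 4.89, 4.95 and 7.75 RPKM against 0.610 to 2.33 (median 1.03), a difference of 1.64 ± 0.14 (adjusted p = 2.1e-06). Kcnd3 (21.7, 21.0 and 24.8 RPKM against 6.85 to 14.8, median 9.55) differed by 1.03 ± 0.13 (adjusted p = 8.1e-05). Kcnj10 (5.04, 5.11 and 6.47 RPKM against 0.608 to 3.86, median 2.34) differed by 1.003 ± 0.15 (adjusted p = 0.00041). All 4 genes had ventral midbrain libraries above every other library. Both of the smaller differences lie close to the limit of 1, and without ventral midbrain replicate 6 only Kcnk9 and Kcnab1 were called, with 9 genes higher at any size (10 without replicate 4). The 4 genes were 7.27% of the 55 tested, against 1.92% of 13851 features called higher, and none was called lower, against 0.491%. At any size, 16 were higher (29.1%, against 12.52% of all features) and 5 were lower (9.09%, against 9.47%). The higher genes included Kcne1l (0.94 ± 0.17, with ventral hindbrain libraries up to 16.5 RPKM overlapping 13.53, 13.1 and 17.0 in the ventral midbrain), Kcnk2 (0.90 ± 0.12), Kcnj2 (0.84 ± 0.10) and Kcnip1 (0.77 ± 0.10). Kcnj2 (2.68, 2.85 and 2.84 RPKM, at most 1.86 elsewhere) and Kcnk2 also had no overlap. The lower genes were Kcnn1 (-0.54), Kcna4, a Kv1 subunit gene (-0.51), Kcnh2 (-0.41 ± 0.07, all ventral midbrain libraries below all others), Kcnk10 (-0.37) and Kcnab2 (-0.31).

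At E14.5, Kcnk9 (24.4, 35.0 and 33.0 RPKM against 0.545 to 8.98, median 2.71) differed by 3.16 ± 0.20 (adjusted p = 3.3e-07). Kcnab1 (4.90, 7.03 and 8.16 RPKM against 0.463 to 2.70, median 1.36) differed by 1.67 ± 0.24 (adjusted p = 0.00054), and Kcnj10 (8.06, 8.61 and 7.41 RPKM against 0.732 to 5.32, median 3.84) by 1.15 ± 0.12 (adjusted p = 2.7e-05). These 3 genes, the same as at the 2 earlier ages, were joined by Kcnn2 and Kcnj16. Kcnn2, a small-conductance calcium-activated channel gene, had 6.43, 6.74 and 5.31 RPKM against 0.998 to 4.09 (median 2.76), a difference of 1.01 ± 0.17 (adjusted p = 0.0015). Kcnj16 encodes a subunit that pairs with the product of Kcnj10. It had 0.815, 2.14 and 2.18 RPKM in the ventral midbrain, 0.449, 2.51 and 1.72 in the ventral hindbrain, and at most 0.247 elsewhere, a difference of 1.01 ± 0.24 (adjusted p = 0.013). Its groups overlapped through the hindbrain. Kcnj16 and Kcnj2 are neighbours on chromosome 11, where Kcnj16 spans 110968033 to 111027968 on the plus strand, and at E12.5 both had their 2 highest regional means in the ventral midbrain and the ventral hindbrain. The calls of Kcnn2 and Kcnj16 rested close to the limit of 1 and were lost in 7 and 8 of the 15 fits that left out 1 library, with 3 called genes left without ventral midbrain replicate 3 or dorsal midbrain replicate 4.

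The 5 called genes were 8.33% of the 60 tested at E14.5, against 2.08% of 14013 features, and none was called lower, against 1.21%. At any size, 16 were higher (26.7%, against 8.86%) and 0 lower (against 9.21%), and without ventral midbrain replicate 2 or 3, 9 or 8 were higher. Among the 16 was Kcnd3 with 27.7, 25.9 and 26.0 RPKM against 8.22 to 20.2 and a difference of 0.83 ± 0.14 (adjusted p = 0.0015), again without overlap. Besides the 5 called genes, the 16 also held Kcnd2 (0.64) and the KChIP genes Kcnip1 (0.87) and Kcnip4 (0.68), whose products assemble with those of Kcnd3 and Kcnd2, the silent subunit Kcns2 (0.95), Kcne1l (0.95), Kcnc4 (0.88), Kcnmb4 (0.73), Kcnmb2 (0.68), Kcnk2 (0.59) and Kcna6 (0.56). limma-voom on the recovered reads called 13 higher and 0 lower (683 of all features in either direction, 460 in the main fit). Over the 3 ages, which share no library, 9 potassium channel genes had an adjusted p below 0.05 in the higher direction each time: Kcnab1, Kcnd3, Kcne1l, Kcnip1, Kcnj10, Kcnk2, Kcnk9, Kcnmb2 and Kcnmb4. The share of all features that were higher at all 3 ages was not computed, so whether 9 is many is not known. In the analysis folder labels deposited with the libraries, ventral and dorsal midbrain libraries of this age share 1 prefix and the other regions another. Against the dorsal midbrain alone, which shares the prefix, Kcnk9 differed by 4.17 ± 0.21, Kcnip1 by 2.44 ± 0.19, Kcnj10 by 2.18 ± 0.19, Kcnab1 by 1.91 ± 0.30 and Kcnd3 by 0.78 ± 0.098.

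**Figure D3:**
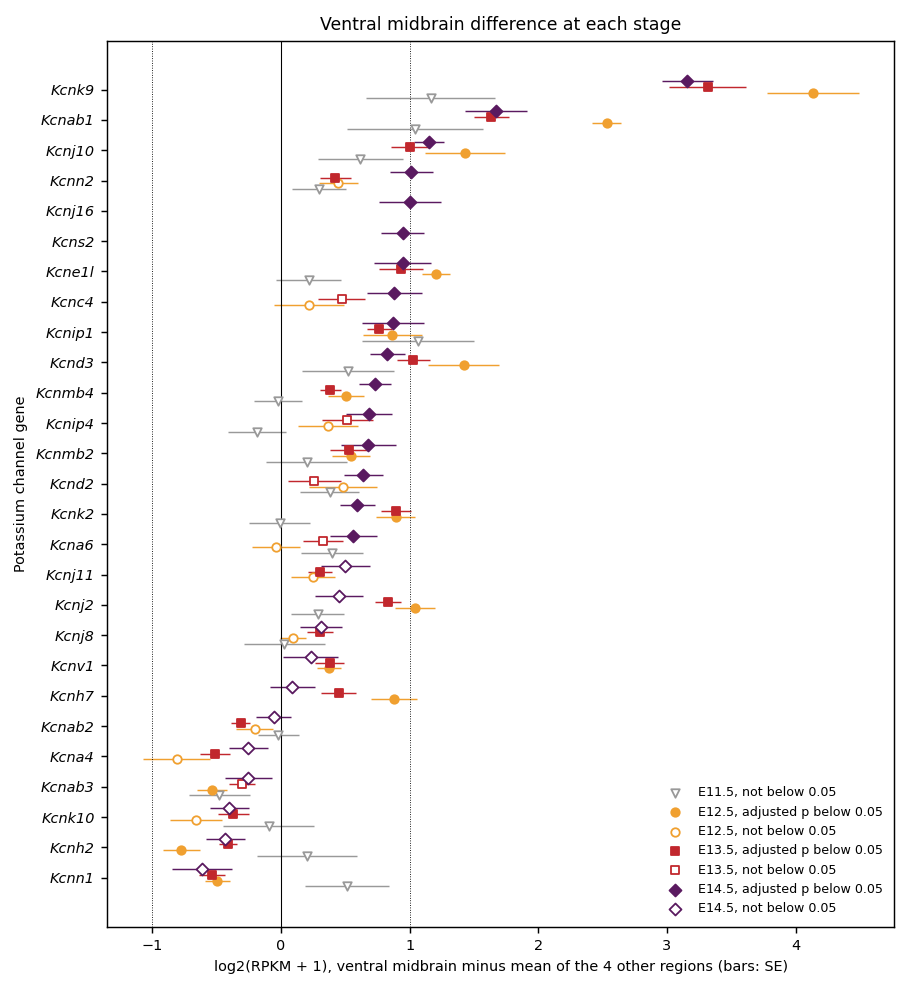
Difference between the ventral midbrain and the mean of the 4 other regions at each age (log2 of RPKM + 1, bars are SE) for the potassium channel genes reported here with an adjusted p below 0.05 at any of the 3 later ages, filled where it was below 0.05 at that age. Kcnk9 goes from 1.16 at E11.5 to 4.13 at E12.5 and then stays above 3, at 3.32 and 3.16.

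Other genes known from dopaminergic neurons differed little or were low. Kcnj6 (GIRK2) was just above the level of 1 RPKM that decided which genes are described, with 1.04 ± 0.36 RPKM in the ventral midbrain at E14.5, and Kcnh6, an ERG-type gene, just below it with 0.937 ± 0.14 RPKM in the same group. Kcnj6 differed by 0.46 ± 0.18 at E14.5 (adjusted p = 0.084), while limma-voom on the recovered reads called it higher (1.21 ± 0.34, adjusted p = 0.024). At E12.5 it had 0.735, 0.893 and 1.04 RPKM in the ventral midbrain and at most 0.511 elsewhere, but stayed below the level needed to be tested at that age, as at E11.5 and E13.5. Kcnn3, a small-conductance calcium-activated channel gene, differed by 0.42 ± 0.14 at E12.5 (adjusted p = 0.077), 0.31 ± 0.15 at E13.5 (adjusted p = 0.15) and 0.38 ± 0.16 at E14.5 (adjusted p = 0.12). Kcnip3 differed by 0.21 ± 0.22 at E12.5 (adjusted p = 0.63), 0.21 ± 0.17 at E13.5 (adjusted p = 0.40) and 0.27 ± 0.17 at E14.5 (adjusted p = 0.29). The GIRK gene Kcnj5 was tested only at E14.5 and differed by 0.15 ± 0.18 (adjusted p = 0.58). Kcnh2 at E14.5 differed by -0.43 ± 0.15 (adjusted p = 0.059).

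Marker genes of several cell types moved with the ventral midbrain. Of 10 dopaminergic genes, 9, 9 and 10 were called higher at the 3 later ages in turn, with median differences of 3.91, 3.77 and 3.75. Of 9 motor neuron and serotonergic genes tested (8 at E14.5), 7, 6 and 6 were called higher, and their summed level in the ventral midbrain at E12.5 (83.5 to 107 RPKM) was near that of the ventral hindbrain (86.2 to 128). At E13.5, 7 of 9 microglial genes tested were higher at any size, with a summed 30.5 to 65.0 RPKM in the ventral midbrain against 11.9 to 29.7 elsewhere. Other lists had genes called lower. Of 9 GABAergic and glutamatergic genes tested, 6, 2 and 3 were called lower at these ages (medians -1.79, -0.18 and -0.08), with none called higher. Of 12 progenitor genes, 1, 1 and 5 were called lower and none higher (medians -0.21, -0.37 and -0.83). At any size, 1, 2 and 7 of them were lower and 1, 3 and 1 higher. Of 12 pan-neuronal genes, 2 were called higher at each of the 3 ages and none lower (medians 0.17, 0.14 and 0.22). The part of these lists in the differences of the potassium channel genes was not tested. Over the 20 group means, Th, which encodes tyrosine hydroxylase, correlated most, among the 64 genes at or above 1 RPKM, with Kcnk9 (0.86), Kcnab1 (0.81), Kcne1l (0.78), Kcnj10 (0.76), Kcnj2 (0.71) and Kcnj5 (0.67), a description over groups that share libraries and age.

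At E11.5 the ventral midbrain libraries of these genes did not group together. Kcnk9 had 7.41, 0.458 and 6.11 RPKM (21, 3 and 29 reads), against at most 4.53 RPKM elsewhere, and Kcnab1 had 15.1, 0.648 and 15.02 RPKM, against 4.65 to 5.96 in the ventral forebrain. In both genes, and in Kcnd3 (9.51, 4.64 and 9.72 RPKM) and Kcnj10 (2.77, 1.92 and 4.76 RPKM), replicate 4 was the lowest. This library was among the 8 whose profile matched another region best, and its dopaminergic genes summed to 31.5 RPKM. Kcnk9 differed by 1.16 ± 0.50 (adjusted p = 0.42), Kcnip1 by 1.07 ± 0.44 (adjusted p = 0.41), Kcnab1 by 1.04 ± 0.53 (adjusted p = 0.45), Kcnip3 by 0.95 ± 0.31 (adjusted p = 0.36), Kcnd3 by 0.52 ± 0.36 (adjusted p = 0.55) and Kcnh2 by 0.20 ± 0.39 (adjusted p = 0.83). None of the 43 genes tested was called by limma in either direction, against 0.0217% of 13802 features called higher and 0% called lower. An unadjusted p below 0.05 was found for 7 of the 43, against 1572 of the 13802 features. A second tool, limma-voom on the recovered reads, called none of the 43 genes either. Without the 8 libraries, 4 were called higher: Kcnab1 (2.63 ± 0.18, adjusted p = 0.00036), Kcnk9 (2.01 ± 0.30, adjusted p = 0.0090), Kcnip3 (1.45 ± 0.24, adjusted p = 0.013) and Kcnj10 (1.11 ± 0.22, adjusted p = 0.030). That fit was chosen after seeing the data. The 8 were all alar plate and all ventral forebrain libraries, ventral hindbrain replicate 2 and ventral midbrain replicate 4. That fit thus set 2 ventral midbrain libraries against the 3 of the dorsal midbrain and 2 of the ventral hindbrain only. The dorsal midbrain libraries of this age carry another analysis folder prefix than all other regions, so region and what the prefix marks are partly mixed in it. With all E11.5 libraries except those of the dorsal midbrain, none of 39 potassium channel genes tested was called.

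Each other region was compared with the mean of the remaining 4 over E12.5 and E13.5 together, 6 libraries against 24. These comparisons share their libraries with each other and with those of the ventral midbrain. The remaining 4 always include the ventral midbrain, so a gene high only there comes out lower in each of the other regions. Comparisons that leave the ventral midbrain out of this mean were not made. In the dorsal midbrain most potassium channel genes were lower. The KChIP gene Kcnip1, on chromosome 11 (33629339 to 33993152, minus strand), had 0.729, 0.930 and 2.48 RPKM there at E12.5 and 1.13, 1.12 and 1.34 at E13.5, against 3.54 to 19.3 (median 11.9) in the other regions. Every dorsal midbrain library lay below every other library, and the difference was -2.34 ± 0.13 (adjusted p = 5.4e-12). Kcnk9 differed by -2.13 ± 0.24 (adjusted p = 1.6e-07), Kcnc4 by -1.28 ± 0.17 (adjusted p = 1.2e-06), Kcnt1 by -1.21 ± 0.12 (adjusted p = 3.7e-08) and Kcnj10 by -1.10 ± 0.18 (adjusted p = 1.5e-05). For these 4 the groups overlapped, in Kcnc4 through a dorsal library of 1.42 RPKM at E12.5. Kcna5, a Kv1 subunit gene, ran the other way, with 2.49, 3.53 and 3.63 RPKM at E12.5 and 2.06, 3.97 and 2.43 at E13.5 against at most 1.80 elsewhere. Its difference was 1.06 ± 0.10 (adjusted p = 1.2e-08), without overlap. At E13.5 alone it was not called, and the 1 gene called higher was Kcna4 (1.08 ± 0.12). Kcna1, Kcna5 and Kcna6 lie in a cluster on chromosome 6, between 126532551 and 126740674. Of these neighbours, Kcna1 was also higher in the dorsal midbrain (0.55 ± 0.09), while Kcna6 was lower (-0.81 ± 0.13).

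Of the 56 genes tested, 1 was called higher in the dorsal midbrain (1.79%, against 3.10% of 13994 features) and 5 were called lower (8.93%, against 3.15%). At any size, 37 were lower (66.1%, against 28.2% of all features) and 9 were higher (16.1%, against 32.3%), with a median of -0.47 for the 56 and 0.03 for all features. With a pseudocount of 0.1 RPKM in place of 1, 20 were called lower and 4 higher, and by limma-voom 23 and 4. limma-voom also called more of all features here, 1784 in either direction against 875 in the main fit. Without dorsal midbrain replicate 3 at E12.5, 8 were called lower and 2 higher, and without its replicate 5 at E13.5 Kcna5 was no longer called. The higher genes included the Kv1 gene Kcna4 (0.96 ± 0.15), Kcnk5 (0.85 ± 0.11) and Kcnk10 (0.50 ± 0.12). Among the lower ones were Kcnk3 (TASK-1, -0.96 ± 0.11), Kcnn2 (-0.96 ± 0.10), Kcne1l (-0.94 ± 0.10), Kcnc1 (-0.93 ± 0.14), Kcnmb4 (-0.84 ± 0.08) and Kcnab1 (-0.71 ± 0.09). The neuronal genes also moved in this region. Of 12 pan-neuronal genes, 10 were lower and 0 higher at an adjusted p below 0.05 (median -0.50), summing to 1929 to 2364 RPKM at E12.5 and 2184 to 2335 at E13.5 against 2215 to 3413 elsewhere. Of 12 progenitor genes, 7 were called higher, and of 10 mesenchymal genes 5 were called higher (summed 70.2 to 134 RPKM, against 5.21 to 359 in the other regions). The part of this difference in the lower potassium channel levels was not tested.

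In the alar plate, Kcnk9 was the only gene of the 56 called lower (-1.12 ± 0.24, adjusted p = 0.0030). It had 0 to 3.20 RPKM there (median 1.76) and 0.0648 to 45.1 elsewhere (median 3.15), and the groups overlapped. The libraries elsewhere include those of the ventral midbrain, which reach 45.1 RPKM and by themselves pull this difference down. The same holds for other genes that were high in the ventral midbrain, such as Kcnab1. Without alar plate replicate 3 at E12.5 it was no longer called (9 lower and 6 higher at any size), as at E13.5 alone (-0.55). That is 1.79%, against 0.579% of all features called lower, and none was called higher by limma, against 0.493%, while limma-voom called 2 higher. limma-voom did not call Kcnk9 (-1.53, adjusted p = 0.093), and the 2 genes it called lower were Kcna5 (-1.75) and Kcnv1 (-1.201). It called 361 of all features in either direction, against 150 in the main fit. At any size, 14 were lower (14 of 56, against 8.35% of all features; 7 without replicate 6 at E13.5) and 3 higher (5.36%, against 5.27%). Kcnip3 was the largest of the 3 (0.82 ± 0.15, adjusted p = 0.00044), with Kcnmb2 (0.42) and Kcnn1 (0.25), and the lower ones included Kcna5 (-0.74), Kcnab1 (-0.56), Kcnd3 (-0.52), Kcnip1 (-0.51), Kcnn3 (-0.49) and Kcnj2 (-0.47). Kcnip1 and Kcnip3, both of the KChIP family, thus differed in opposite directions in this region. The 3 alar plate libraries at E12.5 are those whose profile matched another region best. Of 10 dopaminergic genes, 5 were called lower in the alar plate and 0 higher, as were 4 and 0 of 9 motor neuron and serotonergic genes tested, while 2 of 9 GABAergic and glutamatergic genes were called higher. Their part in the potassium channel levels was not tested.

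In the ventral forebrain, limma called none of the 56 in either direction, against 0.407% of all features higher and 0.543% lower. An unadjusted p below 0.05 was found for 27 of the 56, against 3704 of 13994 features. limma-voom called 2 higher and 1 lower (311 of all features in either direction, 133 in the main fit). At any size, 11 were higher (19.6%, against 5.72%) and 7 lower (7 of 56, against 8.17% of all features). These counts rested on single forebrain libraries: 7 were higher without replicate 2 at E12.5, and 4, 3 or 2 were lower without replicate 1 at E12.5, replicate 5 at E13.5 or replicate 6 at E13.5. The higher genes were led by Kcnip1 (0.82 ± 0.13, adjusted p = 0.00014), Kcnh1, the EAG channel gene (0.73 ± 0.11, adjusted p = 0.00011), the silent subunit Kcnf1 (0.57), the GIRK gene Kcnj9 (0.56), Kcnn1 (0.51), Kcnt1 (0.49) and Kcnh4 (0.48). Among them, 3 belong to the EAG group, since Kcnh8 also differed (0.40). Kcnk9 (-0.79 ± 0.24, adjusted p = 0.032) and Kcnab1 (-0.72 ± 0.09, adjusted p = 6.1e-06) were lower than the mean of the other regions. That mean includes the ventral midbrain, where both genes were highest. Of 9 motor neuron and serotonergic genes tested, 5 were called lower in the ventral forebrain (8 lower at any size, 0 higher), and 2 of 12 pan-neuronal genes were called lower. Their part in these differences was not tested. Kcnj9 and Kcnj10 lie next to each other on chromosome 1, Kcnj9 at 172320501 to 172329318 on the minus strand. Their highest groups were the ventral forebrain at E13.5 for Kcnj9 (3.44 ± 0.53 RPKM) and the ventral midbrain at E14.5 for Kcnj10.

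Of these 4 regions, the ventral hindbrain had the most genes higher at any size. Kcnip1 had 8.98, 14.9 and 13.6 RPKM at E12.5 and 18.0, 17.8 and 19.3 at E13.5, against 0.729 to 15.8 (median 7.62) elsewhere, a difference of 1.21 ± 0.13 (adjusted p = 2.5e-07). It was the only gene of the 56 called higher (1.79%, against 1.72% of all features), and none was called lower by limma, against 1.06%. limma-voom called 11 higher and 2 lower (947 of all features in either direction, 388 in the main fit), and a pseudocount of 0.1 RPKM gave 8 and 1. At any size, 24 were higher (42.9%, against 19.4%) and 4 lower (7.14%, against 20.2%). These included channel genes of fast-firing neurons and leak channels: the Kv3 genes Kcnc4 (0.97 ± 0.17) and Kcnc1 (0.65 ± 0.14), Kcnt1 (0.91 ± 0.12), Kcnk3 (0.88 ± 0.11), Kcnj12, a strong inward rectifier gene (0.74 ± 0.09), Kcnh7 (0.72 ± 0.12) and Kcnma1 (0.67 ± 0.13). For Kcnt1, the ventral hindbrain at E13.5 had 6.52, 4.68 and 5.64 RPKM and the dorsal midbrain 0.574, 0.499 and 0.710. The lower genes were Kcnip3 (-0.53), the silent subunit Kcng1 (-0.53), Kcnn1 (-0.49) and Kcnk5 (-0.43). Pan-neuronal genes moved with this region as well, with 8 of 12 higher and 0 lower, while 8 of 12 progenitor genes were lower and 2 higher, and 5 of 9 motor neuron and serotonergic genes tested were called higher. Their part in the potassium channel levels was not tested.

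**Figure D4:**
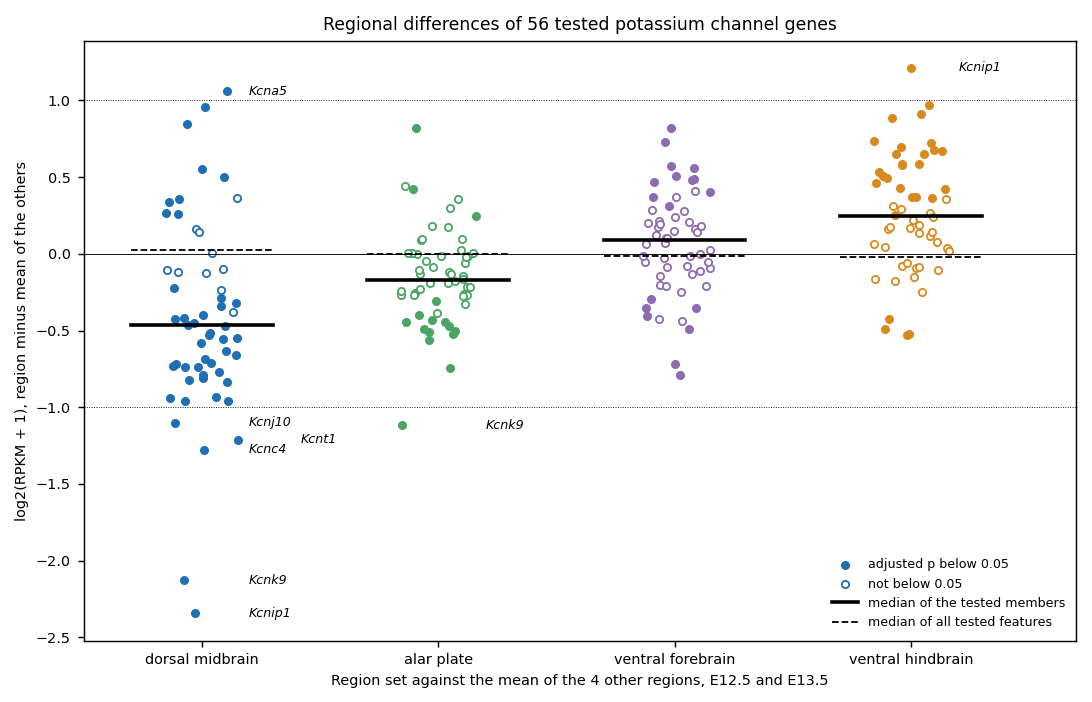
Differences of the potassium channel genes in 4 regions, each against the mean of the remaining 4 regions over E12.5 and E13.5 (log2 of RPKM + 1), with a point for each of 56 genes, filled where the adjusted p is below 0.05, a solid line for their median and a dashed line for the median of all features. Most points lie below 0 in the dorsal midbrain (median -0.47) and above 0 in the ventral hindbrain (median 0.24).

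Between E12.5 and E14.5, averaged over the 5 regions, the level of most potassium channel genes that changed went up, by less than 1 on the log2(RPKM + 1) scale. Kcnd2 rose by 0.83 ± 0.13 (adjusted p = 1.3e-05), Kcnip1 by 0.70 ± 0.14, Kcnv1 by 0.70 ± 0.09, Kcnk1, the TWIK-1 leak channel gene, by 0.69 ± 0.12, and Kcnip4 by 0.68 ± 0.12. Kcnma1 (0.61), Kcnh1 (0.59), Kcnj10 (0.58), Kcns2 (0.56) and the Kv1 gene Kcna4 (0.55) followed. Kcnd2, Kcnd3 (0.40), Kcnip1 and Kcnip4 all belong to Kv4 complexes, while the remaining Kv4 gene Kcnd1 and the KChIP gene Kcnip3 were lower at E14.5 (-0.29 and -0.35). The genes that fell most were Kcnn1 (-0.76 ± 0.11, adjusted p = 4.1e-06) and Kcnh2 (-0.57 ± 0.09, adjusted p = 9.6e-06), followed by Kcnk5 (-0.43). Kcnn1 and Kcnn2, both small-conductance calcium-activated channel genes, thus moved in opposite directions (Kcnn2 by 0.30 ± 0.09). The size of the rise of low genes hung on the scale. With a pseudocount of 0.1 RPKM, Kcnv1 (1.42), Kcns2 (1.29), Kcnk1 (1.13) and Kcnh1 (1.05) rose by more than 1, and by limma-voom Kcns2 (1.68), Kcnv1 (1.65), Kcnh5 (1.44), Kcnk1 (1.22), Kcnh1 (1.13) and Kcnip4 (1.03).

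Of the 62 genes tested, none was called by limma in either direction, against 0.394% of 14227 features higher and 0.499% lower. An unadjusted p below 0.05 was found for 43 of the 62, against 7774 of the 14227 features. limma-voom called 6 higher and 0 lower (572 of all features in either direction, 127 in the main fit). At any size, 32 rose (51.6%, against 23.7%) and 7 fell (11.3%, against 24.3%), with a median of 0.26 for the 62 and -0.01 for all features. Of 12 pan-neuronal genes, 8 rose and 2 fell, of 12 progenitor genes 0 rose and 9 fell, and 4 of the 5 red blood cell genes tested were called lower. Their part in the change was not tested. The libraries of the 2 ages carry different prefixes in their analysis folder labels, so age and what the prefix marks cannot be told apart. Whether the change differed in the ventral midbrain was tested as well. The change there minus the mean change elsewhere passed for none of the 62 genes, against 0.169% of all features higher and 0.0843% lower, and limma-voom called none of the 62. An unadjusted p below 0.05 was found for 10 of the 62, against 1480 of the 14227 features. Kcnk9 (-0.98 ± 0.42, adjusted p = 0.41) and Kcnab1 (-0.86 ± 0.27, adjusted p = 0.20) were among these 10.

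**Figure D5:**
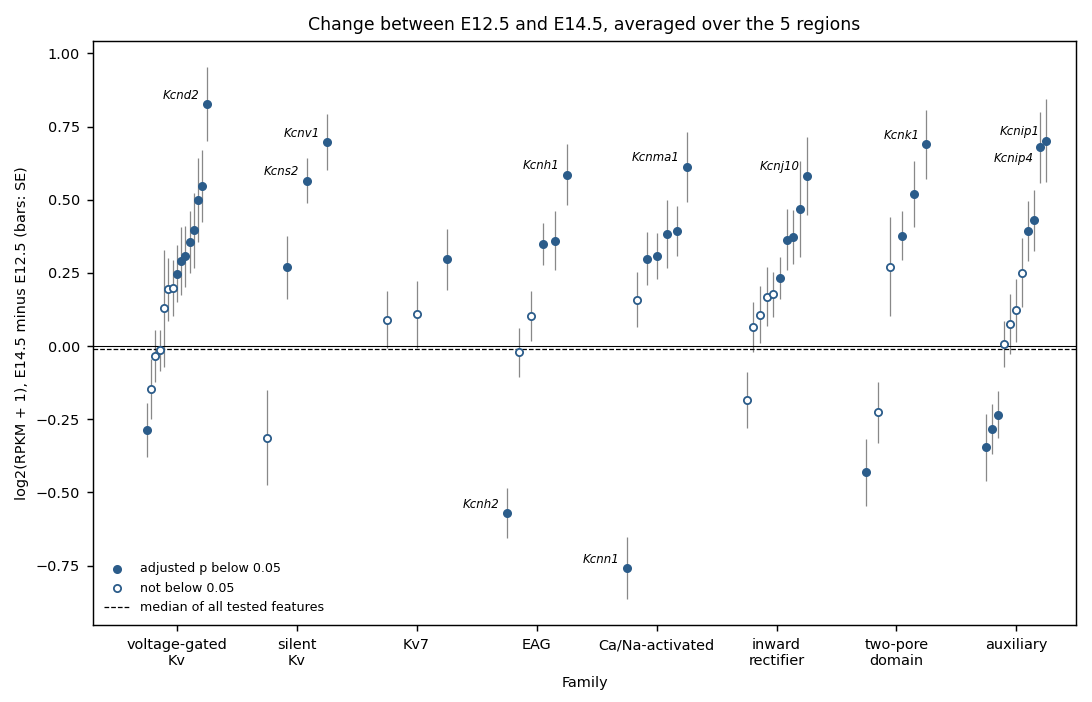
Change of each potassium channel gene from E12.5 to E14.5 averaged over the 5 regions (log2 of RPKM + 1, bars are SE), grouped by family and filled where the adjusted p is below 0.05. Values run from -0.76 for Kcnn1 to 0.83 for Kcnd2.

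Beyond the channel genes, a list of 21 genes for partners of potassium channels and for sodium, chloride and leak transport was followed, of which 15 to 18 passed the filter on low values. Dpp10, which encodes an accessory subunit of Kv4 channels, was higher in the ventral midbrain, with differences of 1.53, 1.40 and 1.33 at the 3 later ages in turn, all called. Beside it, Nalcn, the sodium leak channel gene, was higher at E12.5 (0.93). Cntnap2, which clusters Kv1 channels at the axon, was called lower at E12.5 (-1.50), and Amigo1, a partner of Kv2 channels, was lower (-0.45). At an adjusted p below 0.05 and any size, 3 of the 16 tested were higher and 2 lower at E12.5, against 7.59% and 3.21% of all features. A day later it was 6 and 1 of 17, against 12.52% and 9.47%. At the last age it was 7 and 1 of 18, against 8.86% and 9.21%. In the dorsal midbrain 14 of the 17 partner genes tested were lower at any size, against 28.2% of all features. They were led by Slc12a5, the neuronal chloride exporter (-2.05), and Dpp10 (-1.95). Only 1, Cntnap2, was higher (1.02), against 32.3% of all features. In the ventral hindbrain 8 of 17 were higher at any size, among them Dpp10 (1.54) and Slc12a5 (1.22), and 0 lower, against 19.4% and 20.2% of all features. From E12.5 to E14.5, 12 of 18 rose and 1 fell at any size, against 23.7% and 24.3% of all features, with Dpp10 (1.03) called. Lrrc52, a partner of the sperm channel Slo3, had no reads in any library.

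Of the 30 genes below 1 RPKM in all groups, Kcnk16 and Kcnmb3 had no reads in any of the 60 libraries. The others were Kcna7, Kcna10, Kcne1, Kcne3, Kcne4, Kcng2, Kcng3, Kcng4, Kcnh3, Kcnh6, Kcnj1, Kcnj4, Kcnj13, Kcnj14, Kcnj15, Kcnk4, Kcnk6, Kcnk7, Kcnk12, Kcnk13, Kcnk15, Kcnk18, Kcnmb1, Kcnq1, Kcnq5, Kcns1, Kcns3 and Kcnv2. Kcnq1, the channel gene with which Kcne subunits are best known to assemble, is among them.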

How the data were processed

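RNA was sequenced from whole dissected tissue, 3 libraries for each of 20 groups of region and age. The authors deposited 1 table of RPKM values for 24378 features, made with Bowtie on mm10 per the submitters' processing notes. The sources used here name no version, annotation or strand setting. The deposited RPKM values gave whole reads for 100% of values (tolerance 0.001), from which the depth was read, 979197 to 23581725 reads per library.

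log2(RPKM + 1) was tested with limma 3.58.1 (R 4.3.3, mean-variance trend) on features whose mean reached 1 RPKM in at least 1 group of the comparison, with Benjamini-Hochberg adjustment over all features tested. The scripts were tested on simulated data. limma-voom on the recovered reads was the second tool and called 755 features at E12.5 in the ventral midbrain, where the RPKM fit called 485. The other alternatives were a pseudocount of 0.1 RPKM, no filter, rescaling, a replicate block, 1 fit of all libraries, E13.5 alone, and leaving out libraries or regions. Gene positions come from GENCODE vM21 and promoter windows from RefSeq.

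The genes and lists were chosen with earlier results of these data known. Genes were named by rule: 8 fixed genes of dopaminergic interest, every called gene, the 2 highest of each family, those just above and below 1 RPKM, and the 5 that differed most and least between groups among those reaching 5 RPKM. Other genes named were chosen after their values were seen. Some genes are counted but not reported here by name.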

Additional observations from a re-analysis of the deposited data

How the results depend on the processing

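No result reversed. Rescaling, dropping the filter on low values and the replicate block changed no count of called potassium channel genes by over 1.5 times, and rescaling moved the median of all genes little (most, by -0.0304 on the log2 scale, in the dorsal midbrain). Same-numbered libraries of different regions had median correlations of 0.0018, 0.235, 0.179 and 0.0775 at the 4 ages, against -0.011, -0.098, -0.079 and -0.048 for differently numbered ones. Over 0.1 were 10, 18, 21 and 12 of 30 same-numbered pairs. By their medians, same-numbered libraries were thus more alike, most clearly at E12.5 and E13.5. Whether the numbers pair the samples is not known, and the main fits did not use them. With the replicate block the ventral midbrain again had 6, 4 and 5 genes called higher at the 3 later ages and 0 lower, and no other call count changed. A pseudocount of 0.1 RPKM and limma-voom gave more calls: 8 and 13 higher in the ventral midbrain at E14.5 (main count 5), 4 and 4 higher and 20 and 23 lower in the dorsal midbrain (1 and 5), 3 and 2 lower in the alar plate (1; limma-voom also 2 higher, and Kcnk9 not called), 2 and 2 higher and 1 and 1 lower in the ventral forebrain (0 and 0), 8 and 11 higher and 1 and 2 lower in the ventral hindbrain (1 and 0), and 4 and 6 higher from E12.5 to E14.5 (0). The small pseudocount also gave 1 lower at E12.5 in the ventral midbrain and 1 lower from E12.5 to E14.5. E13.5 alone gave 9 lower in the dorsal midbrain, 0 lower in the alar plate, 1 higher and 1 lower in the ventral forebrain and 3 higher in the ventral hindbrain. At E11.5, 1 fit of all 60 libraries called 1 gene higher, Kcnip1, and the fit without 8 libraries 4. Against the dorsal midbrain only, 21 were higher and 1 lower (Kcnn1) at E14.5. For these settings other than limma-voom, the calls among all features are not given here, so these counts have no share beside them. Leaving out each library in turn gave, in the ventral midbrain, 0 to 1 called higher at E11.5 (1 without its replicate 4), and then 5 to 6, 2 to 5 and 3 to 5 at the 3 later ages in turn. It gave 0 to 2 higher and 5 to 8 lower in the dorsal midbrain, 0 to 1 lower in the alar plate and ventral forebrain (1 without forebrain replicate 2 at E12.5), 1 to 2 higher in the ventral hindbrain, and 0 in all other counts. Low genes at E11.5 and E14.5 rest on few reads, such as 3 for Kcnk9 in 1 ventral midbrain library.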

Other observations

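The levels of potassium channel genes of secretory epithelium were uneven between libraries, a pattern chosen after the values were seen. Kcne2, an accessory subunit gene known from the choroid plexus, reached 8.83 RPKM (41 reads) in dorsal midbrain replicate 6 at E11.5 and at most 1.67 RPKM in the other 59 libraries, and this library alone brought the gene above 1 RPKM. Kcnj13, an inward rectifier gene of the same epithelium, had 2.40 RPKM (9 reads) there. Over all 60 libraries, Kcne2 had 154 reads and Kcnj13 had 79. An exon of Kcnj13 overlaps an antisense exon of Gigyf2, so reads of these 2 genes cannot be told apart without the strand setting. Ttr, the transthyretin gene, a choroid plexus marker, had 214 RPKM in dorsal midbrain replicate 6 at E11.5. It had 49.8 RPKM in alar plate replicate 4 at E11.5 and at most 2.42 RPKM in the other E11.5 libraries. Kcne2 and Kcnj13 had 0.706 and 1.31 RPKM in that alar plate library.

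Kcnn4, the calcium-activated channel gene of red blood cells, had 0.0924 to 2.62 RPKM at E11.5 and at most 0.525 RPKM at later ages. The summed level of the 8 red blood cell genes listed in the table, of 10 looked for, was 1944 to 20907 RPKM at E11.5 and 111 to 525 at E14.5. Kcnk5 had 1.67 to 5.14 RPKM at E11.5.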
